A study of Mus musculus with 18 samples.

Results

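Metabotropic glutamate receptors are G protein-coupled receptors through which glutamate adjusts how excitable a neuron is and how much transmitter its terminals release. They fall into 3 groups. Group I couples to Gq and phospholipase C and sits mainly on the postsynaptic side. Groups II and III couple to Gi and Go, lower cyclic AMP and act largely as presynaptic brakes. In the dentate gyrus, perforant path axons deliver glutamate to granule cells, and granule cells send it on through their mossy fibres. Some of these receptors are also made by astrocytes, where Grm3 is the best known.

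The 6 genes Grm5 (group I), Grm2 and Grm3 (group II) and Grm4, Grm7 and Grm8 (group III) were described here. They were taken by gene symbol from count tables of 34620 genes, and all 6 had enough reads to be among the 17421 genes tested. RNA was sequenced from the ventral dentate gyrus, cut out of frozen brain sections of males of the outbred Swiss Webster strain aged 8 to 12 weeks, in 6 libraries, 2 per group. WT males descended from a WT mother and a WT grandmother in a lineage bred alongside the others. F1 males were genetically WT sons of mothers carrying 1 functional allele of the serotonin 1A receptor gene (5HT1A-/+), from crosses of heterozygous parents. F2 males were WT sons of F1 females and WT males, so that the grandmother, not the mother, was 5HT1A-/+. All animals sequenced were therefore WT at that receptor. The groups differed in the genotype of both parents for F1 and of both maternal grandparents for F2, as the crosses that gave F1 had heterozygous fathers too. The animals of each group came from at least 3 litters. How many went into each library is not given in the sources used here, so a p-value refers to libraries, with 2 per group. The spread it uses was estimated for each gene over all 6 libraries and moderated across genes, not within 1 group.

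Each library held between 26358165 and 33727936 reads counted on genes. The 6 granule cell markers examined, among them Prox1 and Calb1, summed to between 749.1 and 1064 CPM, the reads on a gene relative to a library size scaled by edgeR's TMM method. The dissected tissue also held RNA of other cells. Markers of interneurons summed to between 573.9 and 809 CPM and those of oligodendrocytes to between 1063 and 2866 CPM, and no marker of any list was at 0 in all libraries. Of the reads aligned to 1 place, 17.7% and 20.7% did not lie wholly within annotated exons in the WT libraries, 13.8% and 12.3% in F1, and 13.9% and 17.4% in F2.

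Per kilobase of exon, Grm5 and Grm2 stood far above the other 4 receptor genes (in the plot of levels per kilobase). Grm5, the Gq-coupled receptor whose activation releases calcium from internal stores, reached 32.0 and 37.0 CPM per kb in the WT libraries, 37.1 and 35.9 in F1, and 39.3 and 37.3 in F2. Grm2, a presynaptic autoreceptor of mossy fibres and perforant path terminals, had 33.9 and 28.1 CPM per kb in WT, 27.7 and 31.4 in F1, and 33.6 and 34.3 in F2. The ranges of Grm5 and Grm2 overlapped in WT and lay apart, with Grm5 higher, in F1 and in F2. With the longest transcript as the length, Grm5 had 37.5 and 43.3 CPM per kb in WT and Grm2 was unchanged. Their ranges then lay apart in WT too. Both were above 88% of the 17275 tested genes with a known exon length, Grm5 at the 90.6th and Grm2 at the 89.0th percentile of the mean level.

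**Figure D1:**
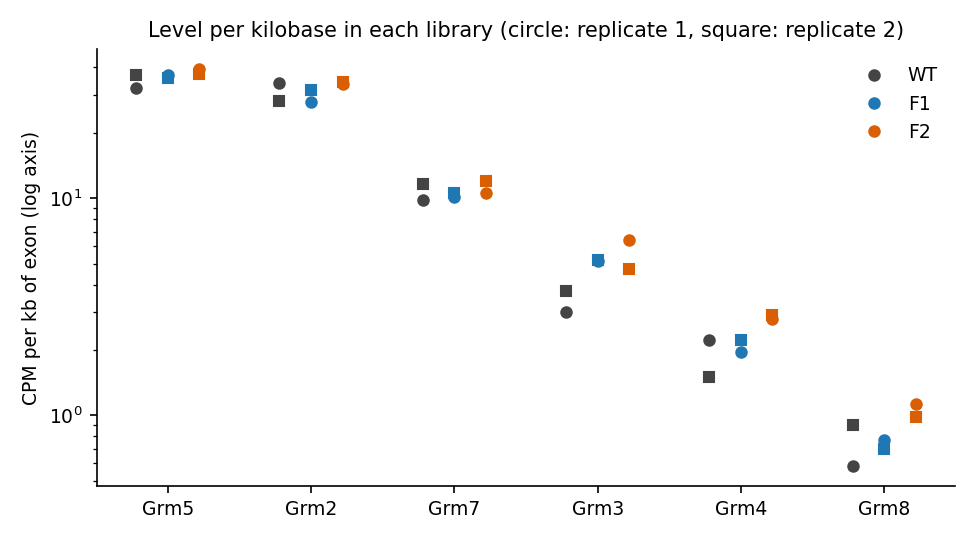
Level of each receptor gene in each library, in CPM per kb of exon on a log axis, with WT, F1 and F2 in different colours, circles for replicate 1 and squares for replicate 2. Grm5 and Grm2 sit at 27.7 to 39.3, Grm7 at 9.80 to 11.96, and Grm8 lowest at 0.585 to 1.124.

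The remaining order was Grm7, Grm3, Grm4 and Grm8. Grm7, a low-affinity receptor placed in the active zone of terminals, ranged from 9.80 to 11.96 CPM per kb over the 6 libraries. Grm3, the other group II receptor, ranged from 2.98 to 6.38, Grm4 from 1.496 to 2.88 and Grm8 from 0.585 to 1.124. None of these neighbouring ranges overlapped with exon lengths taken as the union of all exons. With the longest transcript as the length, Grm3 began at 3.02 and Grm4 reached 3.38 CPM per kb, so that their ranges over the 6 libraries overlapped. Grm8 was at the 22.7th percentile of tested genes and rested on 156 to 236 reads per library, against 8105 to 9075 for Grm5.

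The genes lie at 6 places in the genome (mm9, GENCODE M1, all protein-coding). Grm5 spans chr7:94750952-95283417 on the plus strand and Grm2 chr9:106546868-106558440 on the minus strand. Grm3 is at chr5:9485236-9725352 and Grm4 at chr17:27559332-27650286, both on the minus strand. Grm7, at chr6:110595575-111517224 on the plus strand, and Grm8, at chr6:27225121-28085178 on the minus strand, are both on chromosome 6, far apart. Grm2 is by far the most compact, at 11.6 kb against 921.6 kb for Grm7. Exons of another annotated gene cover 2.21% of the exon length of Grm7 and 1.22% of that of Grm8 and 0% of that of the other 4.

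Grm3 was the receptor gene that differed in F1 and in F2 from WT. Its counts were 363 and 381 in the WT libraries, 556 and 572 in F1, and 611 and 457 in F2. Scaled to library size this was 10.7 and 13.4 CPM in WT, 18.4 and 18.5 CPM in F1, and 22.8 and 17.0 CPM in F2. All 4 F1 and F2 libraries were above both WT libraries, and the F2 libraries lay on either side of the F1 pair. The mean of Grm3 was 12.05 ± 1.93 CPM (SD, n = 2) in WT. In F1 the gene rose to 18.4 ± 0.120 CPM, a log2 fold change of 0.62 (standard error 0.19, adjusted p = 0.00918 by edgeR's exact test). In F2 it rose to 19.9 ± 4.16 CPM, with a log2 fold change of 0.73 (standard error 0.19, adjusted p = 0.00162 by edgeR's exact test). The rise corresponds to 1.53-fold in F1, with a 95% interval from 1.19 to 1.98, and to 1.65-fold in F2, from 1.28 to 2.14. F1 and F2 were each compared with the same WT libraries. The study itself drew Grm3 among the changed receptors from these libraries, so the result is not independent of that choice.

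**Figure D2:**
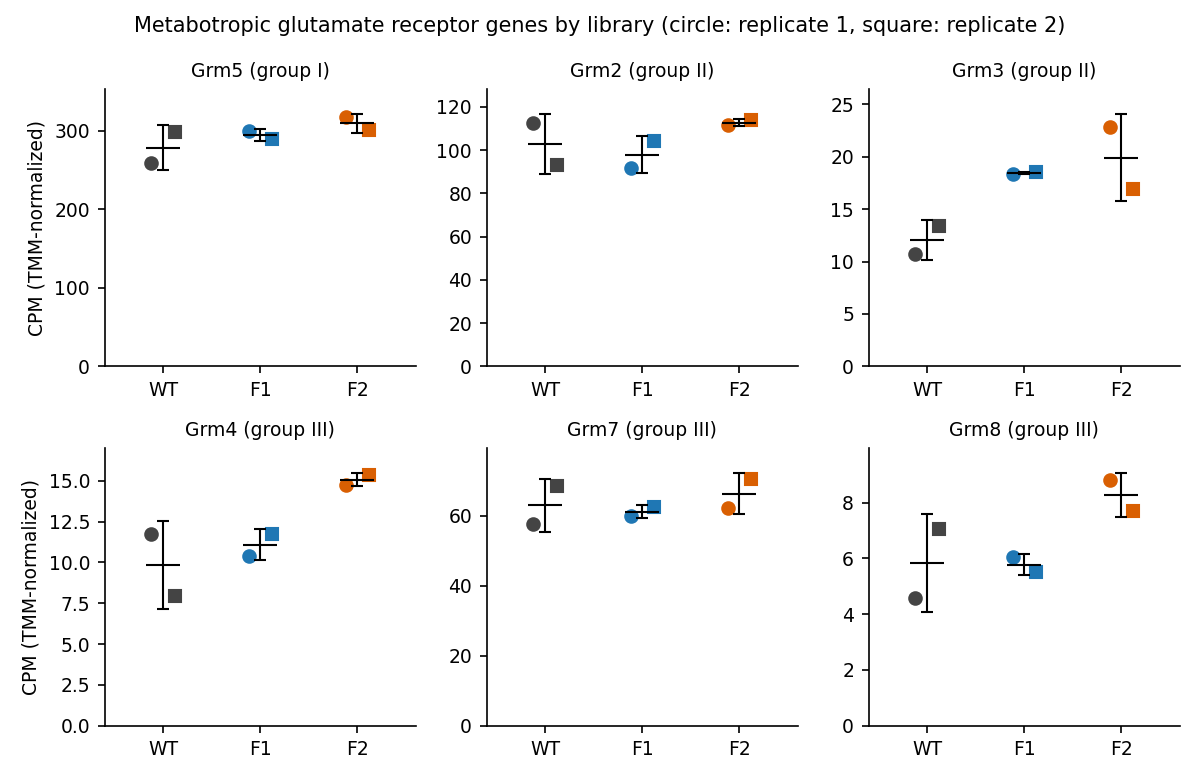
CPM of the 6 receptor genes in each library, with axes from 0, circles for replicate 1, squares for replicate 2, and bars for the mean and SD of the 2 libraries of a group. Grm3 is at 10.7 and 13.4 CPM in WT and between 17.0 and 22.8 CPM in F1 and F2, while Grm2 and Grm7 overlap between WT and both other groups.

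The adjusted p of Grm3 in F1 lay just under the threshold of 0.01, and the call was lost in 9 of 13 alternative fits. Among them were edgeR's quasi-likelihood test (adjusted p = 0.0299) and the fit without WT replicate 1, where the log2 fold change was 0.46 (adjusted p = 0.197 by edgeR). Leaving out F1 replicate 1 or F1 replicate 2 also ended it (adjusted p = 0.0275 and 0.0531 by edgeR). In F2 the call was lost in 4 of 13 fits: both forms of the quasi-likelihood test (adjusted p = 0.0156 without a replicate block by edgeR), the fit without WT replicate 1 (log2 fold change 0.57, adjusted p = 0.102 by edgeR) and the fit without F2 replicate 1 (log2 fold change 0.50, adjusted p = 0.167 by edgeR). Grm3 was above WT in each of these fits, and its log2 fold change in F1 was 0.46 to 0.80, that in F2 0.50 to 0.93.

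The summed markers of astrocytes were also higher in F1 and F2 than in WT. The 7 astrocyte markers summed to 608.7 and 682.4 CPM in WT, 710.2 and 964.6 CPM in F1, and 1040 and 864.9 CPM in F2, so that F1 and F2 lay above WT without overlap. Of the 7, 1 was called as higher in F1 (Aldh1l1, a folate enzyme specific to astrocytes). In F2, 4 were called as higher (Aldh1l1, Gfap, Gja1 and S100b), and none was called as lower. These are 14.3% and 57.1% of the list, beside 12.3% and 12% of all tested genes. Fgfr3 and Gjb6 had log2 fold changes of -0.02 and 0.01 in F1. The marker sum differed between the F1 replicates, while Grm3 was at 18.4 and 18.5 CPM in them. Among the 7 markers, DESeq2 called 2 in F1 and 3 in F2, while the quasi-likelihood test called 0 and 1. An unadjusted p under 0.05 by edgeR's exact test was reached by 4 in F1 and 7 in F2. The share of all tested genes that reached it is not given here. Grm3 relative to the sum of these markers was 17.5 and 19.7 CPM per 1000 marker CPM in WT, 25.8 and 19.2 in F1, and 21.96 and 19.6 in F2. On this scale the groups overlapped by a small margin, with WT replicate 2 at 19.66 against 19.20 in F1 replicate 2 and 19.62 in F2 replicate 2. The sum leans on Gfap, the marker with the highest CPM in every library. Gfap had 189.8 and 196.9 CPM in WT, 222.1 and 386.6 CPM in F1, and 362.7 and 285.5 CPM in F2. The ratio therefore depends on the markers chosen, and the overlap holds for the sum that includes Gfap. The ratio was not computed without Gfap, so whether the groups overlap on other marker sums is not shown here. The 4 markers of oligodendrocyte precursors also separated in sum, at 56.1 and 66.2 CPM in WT, 85.0 and 95.6 CPM in F1, and 86.8 and 89.4 CPM in F2. Of the 4, 2 were called as higher in F1 (Pdgfra and Gpr17) and 1 in F2 (Pdgfra). These are 50% and 25% of the list, beside 12.3% and 12% of all tested genes. Vcan, another of the 4, had values below WT, -0.16 in F1 and -0.04 in F2 on the log2 scale. The 6 markers of mature oligodendrocytes were at 1063 and 1939 CPM in WT and 2866 and 2160 CPM in F1. In F2 they were at 1475 and 2794 CPM and overlapped with WT. Mag and Cnp were called as higher in F1 and Cnp in F2, by edgeR's exact test. These are 33.3% and 16.7% of the list, beside 12.3% and 12% of all tested genes. The quasi-likelihood test and DESeq2 called 0 of the 6. The 5 markers of microglia separated in sum, at 89.5 and 93.5 CPM in WT, 106.3 and 125.5 CPM in F1, and 139.5 and 118.6 CPM in F2. Of these 5, 0 were called in F1 and 3 rose in F2, 0% and 60% of the list, beside 12.3% and 12% of all tested genes. In F1, 2 of the 5 microglia markers had an unadjusted p under 0.05 by edgeR's exact test, and the quasi-likelihood test and DESeq2 called 0. The 4 endothelial markers were likewise lowest in WT, at 69.0 and 71.8 CPM, against 74.3 and 88.8 CPM in F1 and 93.2 and 93.0 CPM in F2. Among them 0 were called in F1 and 1 rose in F2 (Pecam1). These are 0% and 25% of the list, beside 12.3% and 12% of all tested genes. The part of these cell types in the rise of Grm3 was not tested, and in dissected tissue more cells of a type and more RNA per cell cannot be told apart.

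**Figure D3:**
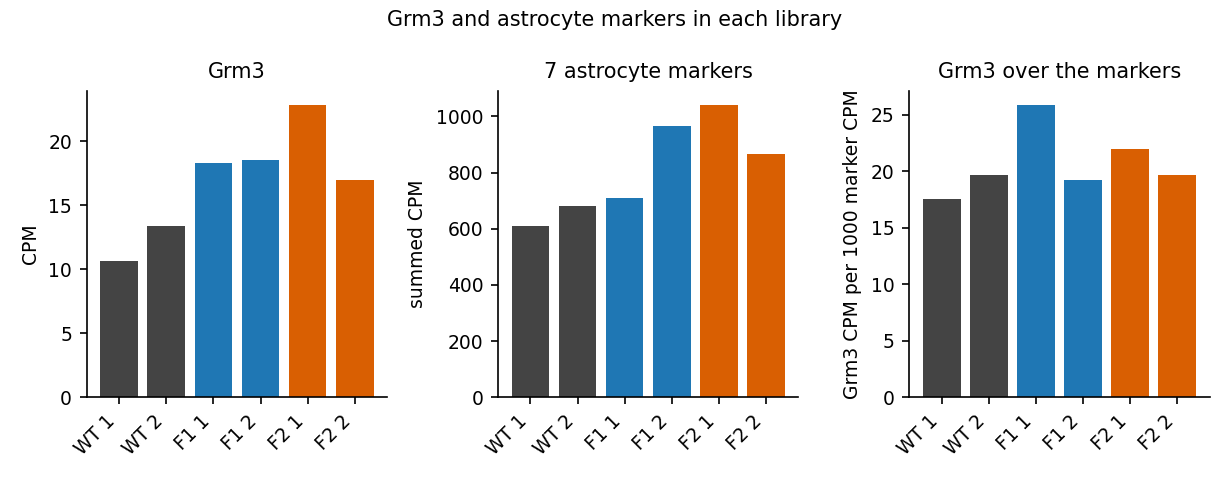
Grm3 in CPM, the summed CPM of 7 astrocyte markers, and Grm3 per 1000 CPM of those markers, as bars from 0 for each library, coloured by group. The first and the second are lower in both WT libraries than in all others. With Gfap in the sum, the ratio in WT replicate 2, 19.7, is above those of F1 replicate 2 and F2 replicate 2.

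Grm2, the other group II gene, passed the threshold in neither comparison. It had 112.6 and 93.2 CPM in WT, 91.9 and 104.1 CPM in F1, and 111.6 and 113.9 CPM in F2. F1 and F2 each overlapped with WT. The log2 fold changes of Grm2 were -0.07 in F1 and 0.13 in F2 (adjusted p = 0.764 and 0.524 by edgeR's exact test). For F1 the 95% interval spanned 0.798- to 1.14-fold, for F2 it spanned 0.918- to 1.31-fold. Because both genes were counted in the same libraries, their ratio does not depend on the scaling between libraries. Per kb of exon, Grm2 exceeded Grm3 by 11.4 and 7.49 times in WT, 5.40 and 6.06 times in F1, and 5.26 and 7.24 times in F2. Both WT libraries had a higher ratio than any F1 or F2 library, by a small margin for WT replicate 2.

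Grm5, the group I receptor of the list, did not pass either. It was at 258.4 and 298.4 CPM in WT, 299.6 and 289.4 CPM in F1, and 317.4 and 300.9 CPM in F2. The F1 libraries overlapped with WT and both F2 libraries were above it. The log2 fold changes of Grm5 were 0.08 in F1 and 0.15 in F2 (adjusted p = 0.696 and 0.409 by edgeR), with 95% intervals from 0.899- to 1.25-fold and from 0.944- to 1.31-fold.

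The group III receptors passed the threshold in neither comparison. Grm4, the receptor of this group best known from the cerebellum, had 11.8 and 7.96 CPM in WT, 10.4 and 11.8 CPM in F1, and 14.8 and 15.3 CPM in F2. Its WT libraries differed widely, by 400 against 226 reads, and both F2 libraries were above all WT and F1 libraries. The log2 fold change of Grm4 was 0.61 in F2 (standard error 0.20, adjusted p = 0.0204 by edgeR's exact test), or 1.52-fold with a 95% interval from 1.15 to 2.01. In F1 it was 0.16 (adjusted p = 0.634 by edgeR). Without WT replicate 1 the F2 value was 0.93 and passed the threshold (adjusted p = 0.00295 by edgeR), and without WT replicate 2 it was 0.36 (adjusted p = 0.297 by edgeR).

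Grm8, a receptor of high glutamate affinity, had 4.59 and 7.08 CPM in WT, 6.04 and 5.50 CPM in F1, and 8.82 and 7.72 CPM in F2. Both F2 libraries were above all others, with a log2 fold change against WT of 0.51 (standard error 0.24, adjusted p = 0.123 by edgeR). Without WT replicate 1 it was 0.23 and without WT replicate 2 it was 0.86 (adjusted p = 0.682 and 0.0189 by edgeR). The summed granule cell markers were also highest in both F2 libraries, as for Grm4 and Grm8, at 848.0 and 845.3 CPM in WT, 749.1 and 913.7 CPM in F1, and 1064 and 997.0 CPM in F2. Prox1 and Calb1, the markers with the highest CPM, were likewise highest in both F2 libraries, while C1ql2, Dsp, Pdzd2 and Tdo2 were not. C1ql2 had 134.6 and 139.2 CPM in WT and 158.3 and 120.9 CPM in F2. Dsp and Tdo2 were highest in F1 replicate 2, at 115.3 and 23.25 CPM. None of the 6 markers passed the threshold in F2 by edgeR's exact test, by the quasi-likelihood test or by DESeq2. By the exact test, 5 had an unadjusted p under 0.05. The part of these markers in the values of Grm4 and Grm8 was not tested. The log2 fold change of Grm8 between F1 and WT was -0.01 (adjusted p = 0.998 by edgeR), with a 95% interval from 0.716- to 1.38-fold. Grm7 had 57.7 and 68.4 CPM in WT, 59.8 and 62.5 CPM in F1, and 62.2 and 70.4 CPM in F2. The groups overlapped in both comparisons with WT, with log2 fold changes of -0.04 in F1 and 0.07 in F2 (adjusted p = 0.864 and 0.747 by edgeR).

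**Figure D4:**
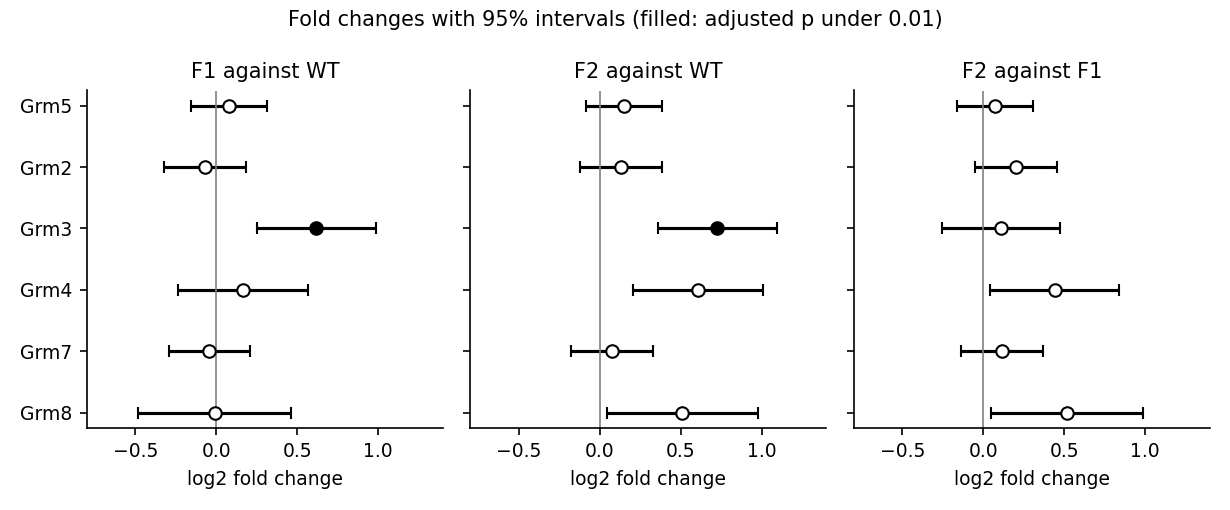
Log2 fold changes of the 6 receptor genes in the 3 comparisons, with 95% intervals from the standard errors; filled points have an adjusted p under 0.01. Grm3 is the filled gene against WT, at 0.62 in F1 and 0.73 in F2, and no point is filled between F2 and F1.

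Of the 6 receptor genes, 1 was thus called in F1 and 1 in F2, the same gene, Grm3. Among all tested genes 12.3% were called in F1, 3.77% as higher and 8.54% as lower, and 12% in F2, 3.86% as higher and 8.1% as lower, so that a single call among 6 genes is near the background. The median log2 fold change of the 6 genes was 0.04 in F1 and 0.33 in F2, against 0.01 and 0.00 over all tested genes. In F2, the fitted value of every one of the 6 was above WT, while in F1 there were 3 above and 3 below. Some of these directions rested on single libraries: leaving out 1 turned that of Grm7 in F2 (-0.04 without WT replicate 1 and -0.01 without F2 replicate 2) and those of Grm5, Grm2, Grm4, Grm7 and Grm8 in F1. At the threshold of 0.05 given in the study's methods, Grm3 was called in F1, and Grm3 and Grm4 in F2, beside 20.8% and 20.7% of all tested genes.

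Between F2 and F1, 0 of the 6 genes were called by edgeR's exact test, against 0.74% of all tested genes, and DESeq2 and the quasi-likelihood test also called 0. Of these genes, 2 had an unadjusted p under 0.05 by edgeR, Grm4 and Grm8. Grm4 was higher in F2 by a log2 fold change of 0.44 and Grm8 by 0.52, both with an adjusted p of 0.470 by edgeR, and both F2 libraries were above both F1 libraries in each. Grm3 did not differ detectably, with a log2 fold change of 0.11 and a 95% interval from 0.839- to 1.39-fold (adjusted p = 1 by edgeR). The effects in F1 and F2 were therefore not shown to differ for any of the receptors.

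Genes that work with the receptors were taken from 4 lists with 40 genes, of which 39 were tested and the other is not analysed here. In F1, 3 of them rose and 1 fell, and in F2, 7 rose and 1 fell. These 4 and 8 calls are 10.3% and 20.5% of those tested, beside 12.3% and 12% of all tested genes. The median log2 fold change of the 39 genes was 0.20 in F1 and 0.23 in F2. The 2 comparisons share the WT libraries. The lists were chosen with earlier results of these data known. The study's own list of genes changed in both F1 and F2 holds Gnaq, Rgs4, Plcb4 and Slc1a2. That list was drawn from these same libraries, so the values of these genes are not independent of it.

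Of the 7 genes tested that carry or shut off the signal of group I receptors, 2 rose in F1 and 3 in F2, and none fell. These are 28.6% and 42.9% of those tested, beside 12.3% and 12% of all tested genes. Rgs4, which speeds the shutting off of Gq and Gi, was at 96.3 and 87.3 CPM in WT, 145.9 and 150.1 CPM in F1, and 148.5 and 147.5 CPM in F2. Rgs4 rose by the same log2 fold change, 0.69, in F1 and F2 (standard error 0.12, adjusted p = 1.92e-07 and 2.19e-07 by edgeR), and it passed the threshold in all 13 alternative fits of each comparison. Itpr1, the inositol trisphosphate receptor that opens calcium stores, had 117.6 and 113.0 CPM in WT, 130.2 and 181.9 CPM in F1, and 201.0 and 186.0 CPM in F2. Itpr1 rose in F2 with a log2 fold change of 0.75 (adjusted p = 1.6e-05 by edgeR), also in all 13 alternative fits, and in F1 the value was 0.44 (adjusted p = 0.0208 by edgeR). Gnaq, the Gq alpha subunit itself, had log2 fold changes of 0.43 in F1 and 0.43 in F2 (adjusted p = 0.00973 and 0.00929 by edgeR). Gnaq was called in only 3 of the 13 alternative fits of each comparison, with adjusted p = 0.0294 and 0.029 by edgeR's quasi-likelihood test. Its F1 call was lost without WT replicate 1, WT replicate 2 or F1 replicate 2, and its F2 call whichever of the 4 libraries compared was left out. Gna11, Plcb1, Plcb4 and Trpc5, which did not pass, had values above WT in both groups, between 0.17 and 0.74 on the log2 scale.

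Of the 9 genes of the inhibitory G proteins and of the potassium channels they open, 1 rose in F1 by edgeR's exact test. In F2 the exact test called 0. These are 11.1% and 0% of the list, beside 12.3% and 12% of all tested genes. In F2 the quasi-likelihood test also called 0, DESeq2 called 2, and 3 had an unadjusted p under 0.05 by the exact test. The gene that rose in F1 was Gnb1, a G protein beta subunit, with a log2 fold change of 0.38 (adjusted p = 0.00677 by edgeR). Its call was lost without each library in turn, and its value in F2 was 0.32 (adjusted p = 0.0304 by edgeR). Over the list, the lowest and highest log2 fold changes were -0.08 and 0.38 in F1, while F2 spanned -0.11 to 0.45.

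**Figure D5:**
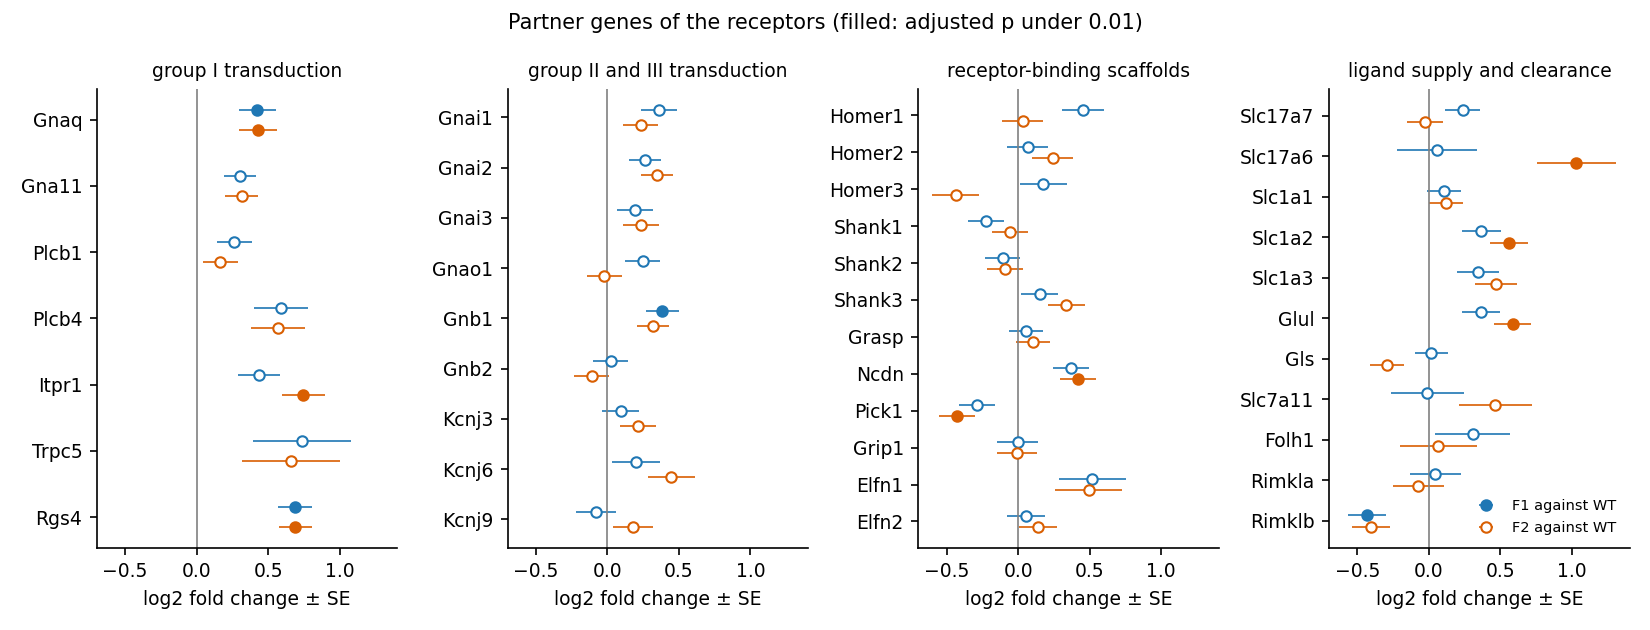
Log2 fold changes against WT of the 39 partner genes tested, in 4 lists, with bars for the standard error, F1 and F2 in different colours and filled points for an adjusted p under 0.01. In the group I list all points lie above 0, with Rgs4 at 0.69 in both, and in the scaffold list most lie within 0.5 of 0.

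Of the 12 genes of scaffold proteins that bind the receptors, 0 were called in F1 by edgeR's exact test, where DESeq2 called 2 and the quasi-likelihood test 0, and 4 had an unadjusted p under 0.05. In F2, 1 rose and 1 fell. Calls by the exact test are 0% and 16.7% of the list, beside 12.3% and 12% of all tested genes. Ncdn, which encodes the Grm5-binding protein norbin, had 2413 and 2094 CPM in WT, 2702 and 3127 CPM in F1, and 2977 and 3041 CPM in F2. Ncdn rose in F2 with a log2 fold change of 0.42 (adjusted p = 0.00777 by edgeR). Pick1, whose PDZ domain holds Grm7 at the terminal, went from 60.9 and 54.2 CPM in WT to 42.3 and 43.3 CPM in F2 and fell by 0.43 on the log2 scale (adjusted p = 0.00795 by edgeR). The calls of Ncdn and of Pick1 were lost without each WT and each F2 library in turn. Homer1, which links group I receptors to calcium stores, had a log2 fold change of 0.45 in F1 (adjusted p = 0.0135 by edgeR), from 149.3 and 108.4 CPM in F1 against 95.4 and 92.9 CPM in WT, and of 0.03 in F2.

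Of the 11 genes that supply or clear the ligands, 1 fell in F1 and 3 rose in F2. These are 9.09% and 27.3% of the list, beside 12.3% and 12% of all tested genes. Rimklb, one of the enzymes that make N-acetylaspartylglutamate, a peptide ligand of Grm3, fell by 0.43 on the log2 scale in F1 (adjusted p = 0.0098 by edgeR) and had a value of -0.40 in F2 (adjusted p = 0.0169 by edgeR). The genes that rose in F2 were Slc1a2 and Glul, the glutamate transporter and the glutamine synthetase of astrocytes, with log2 fold changes of 0.56 and 0.58 (adjusted p = 0.00066 and 0.000206 by edgeR), and Slc17a6. Slc17a6, the vesicular glutamate transporter of subcortical inputs, had 24.1 and 19.0 CPM in WT, 14.1 and 30.8 CPM in F1, and 37.8 and 50.4 CPM in F2, a log2 fold change of 1.03 in F2 (standard error 0.28, adjusted p = 0.00274 by edgeR). The call of Slc17a6 was lost without WT replicate 1, WT replicate 2 or F2 replicate 2, that of Slc1a2 without WT replicate 1 or F2 replicate 1, and that of Glul without WT replicate 2 or F2 replicate 1. Rimklb lost its call without WT replicate 1, WT replicate 2 or F1 replicate 2. Slc17a7, the vesicular transporter of granule cells, had log2 fold changes of 0.23 in F1 and -0.03 in F2 (adjusted p = 0.168 and 0.925 by edgeR).

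Over the 6 libraries, the profile of each receptor gene was compared with those of 11609 other genes with a mean of at least 5 CPM, as Pearson's correlation of log2 CPM, which is given only as a description. The closest to Grm3 were Larp4, an RNA-binding protein gene (0.995), and Fgf13, which encodes an intracellular growth factor homologue (0.994). The closest to Grm2 were Elk3 (0.991) and Hlf (0.990), both transcription factor genes, and to Grm5 Slc25a16 (0.996) and Gm8730 (0.995). For the group III genes they were Rassf8 (0.983) and Palm (0.979) for Grm4, Arhgef10 (0.994) and Gng11 (0.977) for Grm7, and Eif3m (0.992) and Edil3 (0.991) for Grm8. With 6 points in 3 groups such values are common, and 534 genes, or 4.60%, exceeded 0.9 with Grm3 and 18 genes with Grm7.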

How the data were processed

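The authors sequenced single-end reads of 50 bp, aligned them to mm9 with TopHat without new junctions, and deposited raw counts per gene symbol from HTSeq in its intersection-strict mode, which drops reads that reach outside annotated exons. The TopHat version differs between the sources. HTSeq's 5 rows that name no gene, between 35.3% and 46.6% of all rows' sum, were left out. The tool for the comparisons was edgeR 4.0.16 (R 4.3.3). Its filterByExpr removed low counts, TMM set the scaling, and the exact test used tagwise dispersion, estimated after the common one over all 6 libraries, Benjamini-Hochberg adjustment over all tested genes and a threshold of 0.01, the one used for the study's main gene lists (0.05 in its methods). The study's methods do not name the edgeR test. Standard errors follow from mean counts and tagwise dispersion, and 95% intervals from them. CPM per kb used the union of exons in GENCODE M1 (mm9). DESeq2 1.42.0 and other edgeR settings were alternatives. The fits were tested on simulated data in which every gene had the common dispersion, 0.0113. The tagwise values of Grm3, Grm4 and Grm8 were higher, at 0.0147, 0.0172 and 0.0224, so that test did not cover genes as variable as these. Plots were made with matplotlib 3.10.9.

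Groups and replicates came from the sample titles. Replicates were not duplicates: chi-square per degree of freedom between the 2 libraries of a group was 14.3 to 17.5. At this depth counting error is small, so precision rests on having 2 libraries per group. Not analysed here were 12 samples of bisulfite sequencing. The receptor genes and lists were chosen with earlier results of these data known. Genes named are the 6 receptors, list genes past the threshold in F1 or F2, and the 2 genes most like each receptor. Prox1, Calb1, C1ql2, Dsp, Pdzd2, Tdo2, Fgfr3, Gjb6, Vcan, Homer1, Gna11, Plcb1, Plcb4, Trpc5 and Slc17a7 were added after their values were seen.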

Additional observations from a re-analysis of the deposited data

How the results depend on the processing

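Of the 234 fold changes refitted for the 6 receptor genes, 208 kept their direction and side of the threshold, 13 lost a call, all of Grm3, 1 gained one (Grm4 in F2) and 12 changed sign, none of them called. The sign changes were Grm8 in F1 with DESeq2 (0.009) and without a low-count filter (0.016), and the others came from leaving out 1 library. The log2 fold changes in F1 then ranged from -0.017 (without WT replicate 1) to 0.199 for Grm5, from -0.190 to 0.075 (without WT replicate 1; 0.029 without F1 replicate 1) for Grm2, from -0.077 (without WT replicate 2) to 0.480 for Grm4, from -0.159 to 0.095 (without WT replicate 2) for Grm7, and from -0.291 to 0.341 (without WT replicate 2; 0.064 without F1 replicate 2) for Grm8. In F2 they ranged from -0.039 (without WT replicate 1; -0.012 without F2 replicate 2) to 0.211 for Grm7, and between F2 and F1 from -0.117 (without F2 replicate 1) to 0.308 for Grm3. The receptor genes called in F1 fell from 1 to 0 with the quasi-likelihood test, no TMM, no low-count filter and at least 10 counts in every library. In F2 they fell from 1 to 0 with the quasi-likelihood test and numbered 2 at the threshold of 0.05. Leaving out 1 library gave 0 to 1 in F1, 0 to 1 in F2 and 0 between F2 and F1. The partner genes called in F1 and F2, 4 and 8, became 1 and 3 with the quasi-likelihood test. In F1 they were 2 without TMM, without the filter and with at least 10 counts in every library. With dispersion from the 2 groups they were 1 in F1 and 13 in F2. At 0.05 they were 12, 17, and 2 between F2 and F1. Leaving out 1 library gave 1 to 8 in F1, 3 to 6 in F2 and 0 to 3 between F2 and F1. A group left with 1 library was assumed to vary like the others. The cause of these changes was not tested.

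Every group has replicates numbered 1 and 2, but libraries sharing a number did not deviate together. The difference of replicate 1 from replicate 2, over genes, correlated at -0.01 for WT with F1, at -0.09 for WT with F2 and at -0.23 for F2 with F1. With the replicate block, the quasi-likelihood test called 0 receptor genes in F1 and 0 in F2, and 1 and 2 partner genes. With the replicate block in a likelihood-ratio test, the calls were 0 and 1 receptor genes, 1 and 5 partner genes, and 1 partner gene between F2 and F1. With the replicate block and F2 numbers crossed, chosen after seeing the data, the likelihood-ratio test called 1 receptor gene in F1 and 2 in F2. It then called 5 partner genes in F1, 11 in F2 and 1 between F2 and F1.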
